A study of Mus musculus with 33 samples.

Results

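The complement system was followed here through 9 genes, C1qa, C1qb, C1qc, C4b, C3, C3ar1, C5ar1, Itgam and Serping1, which were chosen by name as components, receptors and an inhibitor of the cascade. All 9 were found among the 38355 genes with read counts in aged mice and among the loci with FPKM in young mice. The tissue was the CA1 region of the hippocampus in both experiments. Aged mice of 8 to 10 months were either APP mice treated with JQ1 (50 mg per kg, 10 injections, 6 libraries), APP mice given vehicle with 10% DMSO (6 libraries) or WT mice given the same vehicle (4 libraries). Young WT mice of 3 months received JQ1 at the same dose, or vehicle, with 13 injections (8 libraries each). APP mice carry Thy1-driven transgenes, which act in neurons and include mutant human APP. JQ1 is a small molecule that displaces BET proteins, which read acetylated histones, from chromatin. By the methods, animals were killed 24 h after the last water-maze test, so all groups had been trained, and the aged mice were females. The young WT mice were C57Bl/6j males by the same methods. The strain label of the aged WT mice names the APP line although their titles say WT, and aged WT vehicle replicate 2 was not analysed here. No sequencing batch was given in the sources used here.

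Complement is a cascade of proteins that tags surfaces for removal. C1q, built from the products of C1qa, C1qb and C1qc, recognises a target and starts the classical pathway, which cleaves C4 and then C3, and fragments of C3 and C5 act on receptors of phagocytes. In the brain C1q is known to come mainly from microglia, and the cascade is known for tagging synapses and for its presence around amyloid plaques. The inhibitor made from Serping1 blocks the proteases that act directly after C1q.

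The genes C1qa, C1qb and C1qc lie next to each other on chromosome 4, at chr4:136895917-136898803, chr4:136880129-136886187 and chr4:136889804-136893065 in GRCm38, all on the minus strand. Their levels moved together in the libraries (below), so the 250 bases before the start site are shown for C1qb and C1qc. Start sites are those of RefSeq (GRCm38.p6), and the set of windows used here has no entry for C1qa. The window of Itgam, another member, on the plus strand of chromosome 7, is shown as well. Capitals mark the letters GAGGAA, a core of the kind bound by the myeloid factor PU.1, or TTCCTC, the same letters on the other strand.

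C1qb, minus strand, chr4:136886201-136886450: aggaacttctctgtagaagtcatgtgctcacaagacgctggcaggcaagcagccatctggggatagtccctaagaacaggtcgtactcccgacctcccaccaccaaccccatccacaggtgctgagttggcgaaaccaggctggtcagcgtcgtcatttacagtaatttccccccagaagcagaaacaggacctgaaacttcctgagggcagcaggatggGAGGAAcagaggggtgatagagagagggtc
C1qc, minus strand, chr4:136892915-136893164: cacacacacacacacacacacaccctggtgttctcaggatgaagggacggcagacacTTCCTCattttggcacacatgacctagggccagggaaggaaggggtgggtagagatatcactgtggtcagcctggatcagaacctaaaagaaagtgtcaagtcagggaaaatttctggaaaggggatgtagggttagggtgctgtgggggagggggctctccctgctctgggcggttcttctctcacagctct
Itgam, plus strand, chr7:128062390-128062639: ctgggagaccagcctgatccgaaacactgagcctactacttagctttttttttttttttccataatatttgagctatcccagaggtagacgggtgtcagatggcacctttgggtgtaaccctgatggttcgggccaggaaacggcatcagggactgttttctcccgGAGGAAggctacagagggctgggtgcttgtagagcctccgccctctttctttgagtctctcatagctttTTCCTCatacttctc

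By the start sites of RefSeq, the 6 letters begin 30 bases before the start of C1qb and 193 bases before that of C1qc. For Itgam they begin 84 and 15 bases before its start. The RefSeq start of C1qc lies inside the gene coordinates given above, so part of its window is within the gene by those coordinates. Of the 6 members with an entry, 3 held the letters in this window. Among all 32851 windows of the same length, 23.3% did, so a match is common and describes letters only. C3, C3ar1 and C5ar1 held none and are not shown, so the windows above are those with a match. C1qa, C4b and Serping1 have no entry in the set of windows used here.

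The aged libraries held 14605459 to 25339482 counted reads each, and 3 reads correspond to 0.118 to 0.205 CPM (counts scaled to the library's total). Levels of aged libraries are given in CPM after TMM normalization, and those of young libraries in FPKM, whose depth is unknown. Nothing in the labels says which libraries share an animal or a day, and p-values measure the spread between libraries. The library labelled APP JQ1 replicate 4 went against its label. Thy1, whose promoter drives the transgenes, was at 820 CPM in it, against 841 to 1070 in WT vehicle and 1618 to 2342 in the other APP libraries, and App was at 1781 CPM against 1853 to 1992 and 2070 to 2716. The calls of the 9 genes are therefore given with and without it in each aged comparison. Transcripts of liver cells were also present in some aged libraries, with Alb at 1764 and 1272 CPM in APP JQ1 replicates 3 and 4, 512 in APP vehicle replicate 4 and 148 in WT vehicle replicate 1. The highest Alb of APP JQ1 replicates 2, 5 and 6 was 57.2 CPM, and Alb was at most 0.839 CPM in the other aged libraries, and at most 0.0492 FPKM in young libraries. Of the 12 hepatocyte markers none was called between aged groups when all libraries were used. All 12 nevertheless had a positive log2 fold change in every aged comparison. The medians were 1.294 in APP vehicle against WT vehicle, 2.684 in JQ1 against vehicle and 4.001 in APP JQ1 against WT vehicle. The missing calls therefore do not show that the groups were alike in liver transcripts. WT vehicle replicate 4 stood apart in Ttr, the leading choroid plexus marker, at 3065 CPM against 9.44 to 21.3 in the other WT libraries and at most 114.8 in APP libraries. Markers of CA1 pyramidal neurons, led by Mpped1 at 339 to 453 CPM, were present in all aged libraries.

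C1qa, C1qb and C1qc were higher in APP than in WT mice by 5.03- to 5.70-fold, and they did not pass the test between JQ1 and vehicle. C1qa was at 39.0, 37.5, 41.4 and 48.5 CPM in WT vehicle. In APP vehicle it was at 329, 206, 335, 220, 227 and 106 CPM. In APP JQ1 it was at 232, 226, 143, 44.0, 125 and 247 CPM, the value of 44.0 being that of the library labelled replicate 4. All APP vehicle libraries lay above all WT libraries, and the JQ1 libraries other than replicate 4 lay within the range of APP vehicle. The log2 fold change of C1qa was 2.51 ± 0.43 (SE) in APP vehicle against WT vehicle (adjusted p = 0.00879 in the quasi-likelihood test of edgeR, with p-values adjusted over all genes after Benjamini and Hochberg). C1qb was 2.33 ± 0.39 higher on this scale (adjusted p = 0.00828, edgeR) and C1qc 2.41 ± 0.45 (adjusted p = 0.00993, edgeR). Their WT means were 45.7 ± 2.36 and 30.3 ± 4.92 CPM (SD, n = 4), and their APP vehicle means 230.0 ± 80.1 and 161 ± 54.1 CPM (SD, n = 6).

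With C1q, 7 of the 9 complement genes were higher in APP vehicle than in WT vehicle mice at an adjusted p under 0.05, and none was lower. Of all 16962 genes tested, 2.57% passed in this comparison, 2.49% as higher. The 9 genes had a median log2 fold change of 2.33, and all genes tested one of 0.01. In 7 of the 9 the APP vehicle and WT vehicle libraries did not overlap, against 4.94% of all genes for this direction. In addition to C1q these were C4b, C3ar1, C5ar1 and Itgam. Leaving out WT vehicle replicate 1 reduced the calls to 3 of 9, where 0.889% of all genes were called, with C1qc (adjusted p = 0.0569), C3ar1 (0.0526), Itgam (0.0980) and Serping1 (0.0900) lost in edgeR's test and all 9 still above 0. Itgam and Serping1 were also lost without WT vehicle replicate 3 (adjusted p = 0.0837 and 0.0710) or replicate 5 (0.0637 and 0.0908), where 1.07% and 1.24% of all genes were called. Without the library labelled APP JQ1 replicate 4, which shares the estimate of the spread, 7 of 9 were called and 3.55% of all genes. The log2 fold change of C1qa was then 2.50 ± 0.30, of C3ar1 3.27 ± 0.31, of Itgam 1.08 ± 0.20 and of Serping1 1.49 ± 0.33. Without the 4 libraries with over 100 CPM of Alb 7 of 9 were called and 2.3% of all genes, with C3 in place of Serping1.

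**Figure D1:**
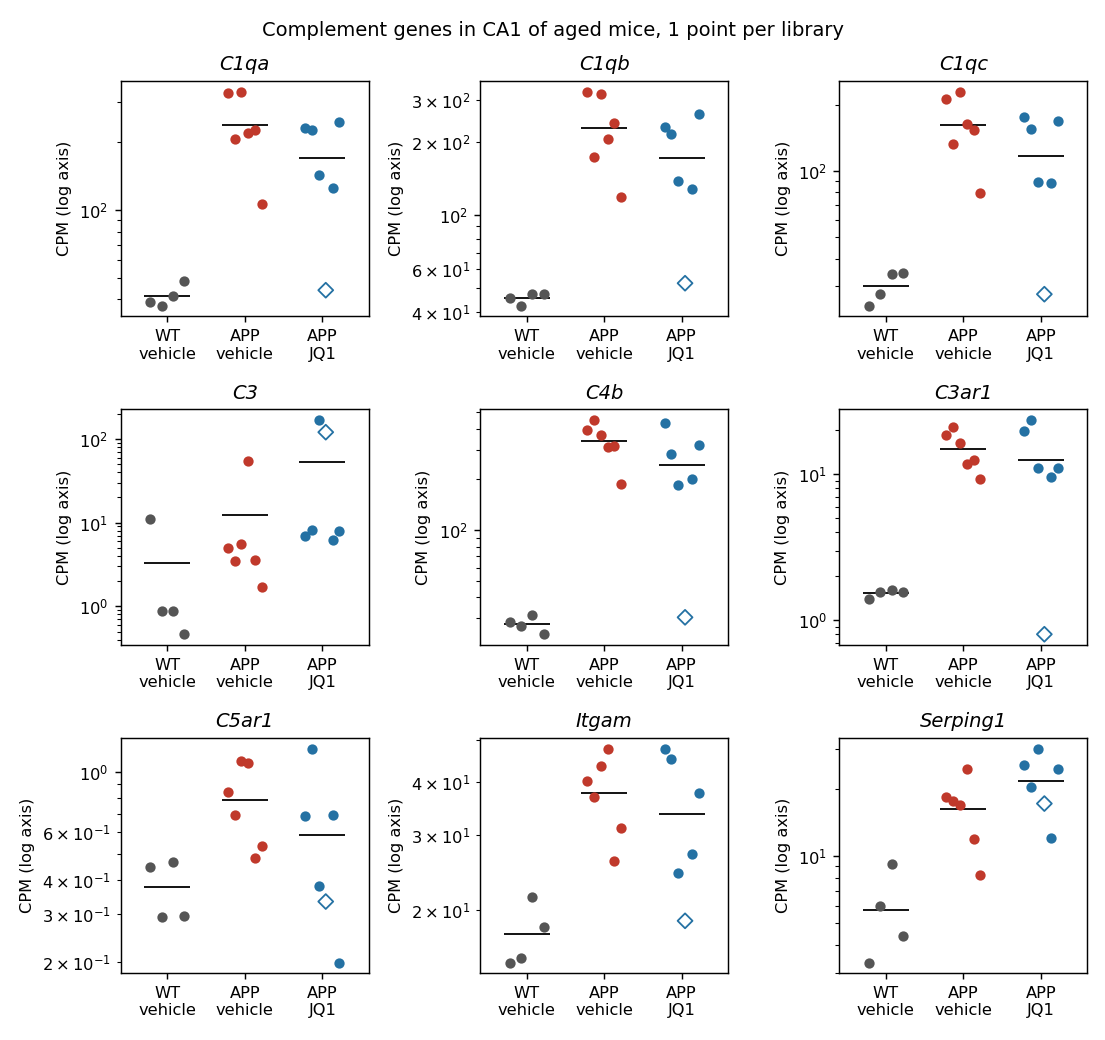
Level of each complement gene in aged libraries (y axis, CPM on a log axis) for WT vehicle (4), APP vehicle (6) and APP JQ1 (6) libraries, with a bar at the mean. The open diamond is the library labelled APP JQ1 replicate 4, which lies at or near the WT level for C1qa, C1qb, C1qc, C4b and C3ar1, and C3 stands apart in 4 libraries, at 11.1 CPM in WT vehicle, 54.8 in APP vehicle, and 167 and 120 in APP JQ1.

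Microglial markers moved with C1q. Their sum over 12 genes was 375 to 413 CPM in WT vehicle, 677 to 1077 in APP vehicle and 405 to 1142 in APP JQ1, the lowest of these being the library labelled replicate 4. In APP vehicle against WT vehicle 7 of the 12 were called higher, with a median log2 fold change of 1.07, and Csf1r, a leading marker of the list, had a mean of 229 CPM against 94.2. More cells and more RNA per cell cannot be told apart in bulk tissue, and the part of microglial number in the C1q values was not tested. Gfap, which led the astrocyte markers in the APP groups, had a mean of 2681 CPM in APP vehicle and 295 in WT vehicle. None of the 12 microglial markers was called between JQ1 and vehicle in APP mice. There 6 of them had a positive log2 fold change, and the median was -0.04. Fcrls, 1 of the 12, was at 6.148 to 36.48 CPM in APP vehicle (mean 15.15). In APP JQ1 it was at 3.043 to 6.995 CPM (mean 4.836). The paper lists Fcrls among the genes lower with JQ1 in APP mice.

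C4b, the fourth component cleaved by the activated C1 complex (minus strand, chr17:34728380-34743882), had the largest log2 fold change of the 9 genes in APP vehicle against WT vehicle. It was at 28.5, 26.9, 31.2 and 24.1 CPM in WT vehicle. In APP vehicle it was at 395, 450, 369, 310, 318 and 187 CPM. In APP JQ1 it was at 436, 284, 185, 30.4, 202 and 318 CPM, so that 5 of the 6 libraries lay far above WT and replicate 4 lay at the WT level. In APP vehicle the log2 fold change against WT was 3.61 ± 0.55 (adjusted p = 0.00828, edgeR), a fold of 12.2. Without the library labelled APP JQ1 replicate 4 it was 3.60 ± 0.28 (adjusted p = 5.51e-06, edgeR).

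Mice carry a near copy of C4b, named C4a, so it is shown where reads can tell them apart. The longest transcripts of 5379 and 5371 bases (GENCODE release M21, GRCm38) were identical at 96.1% of aligned bases, and 35.2% of all 50-base windows of C4b occur letter for letter in C4a. The most different 60 aligned bases follow, with the 13 differing bases in capitals.

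C4b transcript, bases 2761 to 2820: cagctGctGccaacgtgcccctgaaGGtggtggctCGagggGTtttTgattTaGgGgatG
C4a transcript, bases 2755 to 2814: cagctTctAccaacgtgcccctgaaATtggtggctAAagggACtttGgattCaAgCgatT

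C4a itself was low. It ranged from 3.47 to 4.39 CPM in WT vehicle, 3.91 to 5.39 in APP vehicle and 1.39 to 9.05 in APP JQ1, and it was not called in any comparison. Reads in the shared windows could be assigned to either copy or to none, so that the level of C4b is uncertain to this extent.

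C3, on which all pathways of the cascade meet (minus strand, chr17:57203970-57228136), had a level that went with liver transcripts. It was at 11.1, 0.880, 0.885 and 0.465 CPM in WT vehicle. In APP vehicle it was at 5.03, 3.51, 5.59, 54.8, 3.55 and 1.69 CPM. In APP JQ1 it was at 6.89, 8.11, 167, 120, 6.24 and 7.94 CPM. The 4 highest values of C3, across the groups, belong to the 4 libraries with over 100 CPM of Alb, in which C3 was 0.0746 to 0.107 times Alb. The 12 hepatocyte markers summed to 238 to 2959 CPM in these 4 and were all above 1 CPM, and the 5 other vehicle-treated APP libraries held 3.46 to 8.26 CPM. Over all 16 libraries C3 did not pass in APP vehicle against WT vehicle, with a log2 fold change of 1.91 ± 1.47 (adjusted p = 0.595, edgeR), nor in JQ1 against vehicle, with 2.10 ± 1.20 (adjusted p = 0.388, edgeR). Single libraries moved these values. The first was 0.24 without APP vehicle replicate 4 and 4.02 without WT vehicle replicate 1, and the second was 3.77 without APP vehicle replicate 4, 1.29 without APP JQ1 replicate 3 and 1.69 without the library labelled APP JQ1 replicate 4, none of them past the threshold.

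Leaving out these 4 libraries changed the result for C3. It was then at 0.744 ± 0.241 CPM in WT vehicle (SD, n = 3), 3.88 ± 1.53 in APP vehicle (SD, n = 5) and 7.30 ± 0.887 in APP JQ1 (SD, n = 4), and no library of a group overlapped with another group. Of all genes, 7.41% were without overlap in this direction in APP vehicle against WT vehicle, 2.03% in JQ1 against vehicle and 11.5% in APP JQ1 against WT vehicle. The log2 fold change was 2.37 ± 0.37 in APP vehicle against WT vehicle (adjusted p = 0.00252, edgeR), and 3.28 ± 0.38 in APP JQ1 against WT vehicle (adjusted p = 0.000324, edgeR). In JQ1 against vehicle it was 0.91 ± 0.28, which did not pass (adjusted p = 0.160, edgeR), and none of the 9 genes passed, against 0.444% of all genes. The exact two-sided permutation test of C3 alone gave p = 0.0159 there, the smallest that 4 libraries against 5 can give. Of the 4 remaining JQ1 libraries 3 still held 53.4 to 108 CPM of hepatocyte markers. Of the 11 hepatocyte markers then tested, 8 were called higher in APP JQ1 against WT vehicle (median log2 fold change 3.55), 3 in JQ1 against vehicle (2.72) and 0 in APP vehicle against WT vehicle (0.68). Their part in the differences of C3 was not tested. The limit on Alb was chosen after the values of the members had been seen, as the last of 3 limits that were tried. With a limit of 100 CPM on the summed hepatocyte markers, which leaves out 5 libraries, C3 had a log2 fold change of 2.37 in APP vehicle against WT vehicle (adjusted p = 0.00404, edgeR) and 0.87 in JQ1 against vehicle (adjusted p = 0.273, edgeR). With a limit of 10 CPM, which leaves out 7 and keeps 1 JQ1 library, these were 2.37 (adjusted p = 0.0127, edgeR) and 0.83 (adjusted p = 0.818, edgeR).

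**Figure D2:**
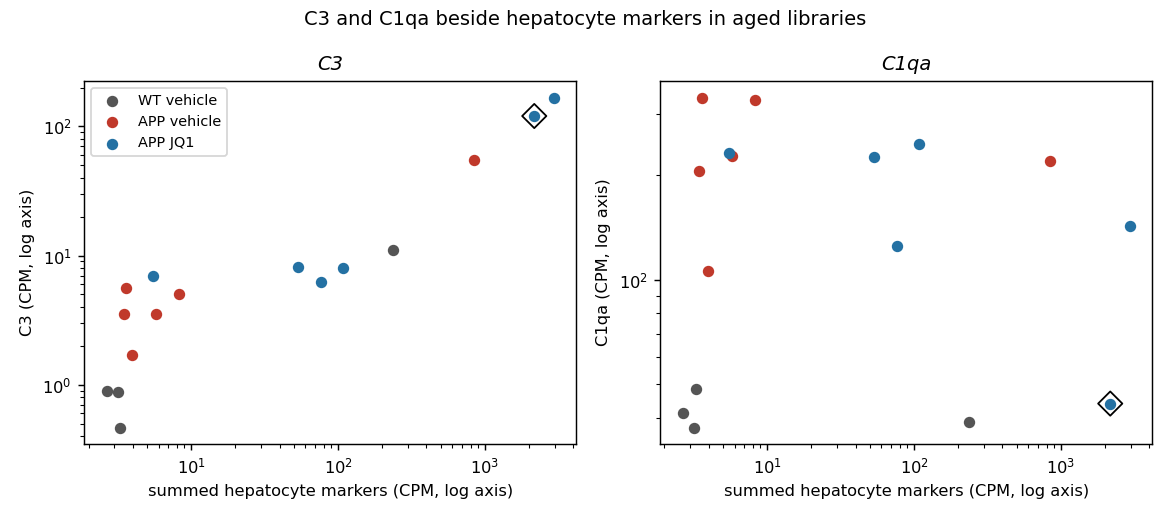
Level of C3 (left) and C1qa (right) in each aged library (y axis, CPM on a log axis) against the sum of 12 hepatocyte markers (x axis, CPM on a log axis), with the library labelled APP JQ1 replicate 4 in a diamond. C3 rises to 167 CPM in the library with 2959 CPM of hepatocyte markers, and C1qa is low in WT libraries and in replicate 4 at either end of the x axis.

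The receptors C3ar1, C5ar1 and Itgam differed in level and in response. C3ar1, the receptor of the C3a fragment (minus strand, chr6:122847138-122856161), was at 1.40, 1.56, 1.60 and 1.56 CPM in WT vehicle. In APP vehicle it was at 18.6, 21.2, 16.3, 11.8, 12.5 and 9.31 CPM. In APP JQ1 it was at 19.7, 23.5, 11.01, 0.800, 9.59 and 10.98 CPM, with replicate 4 below the WT libraries and the others above them. The log2 fold change in APP vehicle against WT vehicle was 3.28 ± 0.60 (adjusted p = 0.00959, edgeR), a fold of 9.71.

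Itgam, the integrin chain that with the product of Itgb2 forms complement receptor 3 (chr7:128062640-128118491), was at 15.04, 15.45, 21.5 and 18.3 CPM in WT vehicle. In APP vehicle it was at 40.1, 36.9, 43.5, 47.6, 26.01 and 31.1 CPM. In APP JQ1 it was at 47.8, 45.3, 24.4, 18.9, 27.1 and 37.7 CPM, and only replicate 4 fell within the WT range. The log2 fold change in APP vehicle against WT vehicle was 1.09 ± 0.24 (adjusted p = 0.0193, edgeR).

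C5ar1, the receptor of the C5a fragment (minus strand, chr7:16246743-16259540), was the lowest of the 9, with 3 to 28 reads per aged library. It was at 0.293 to 0.464 CPM in WT vehicle, 0.482 to 1.10 in APP vehicle (median 0.766) and 0.199 to 1.22 in APP JQ1 (median 0.533). The vehicle groups did not overlap, and the log2 fold change of 1.06 ± 0.45 did not pass (adjusted p = 0.281, edgeR). The exact two-sided permutation test of this gene alone gave p = 0.00952, the smallest that 6 libraries against 4 can give. Any gene whose groups do not overlap gets this p, as 4.94% of all genes did in this direction.

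Serping1, the C1 inhibitor (minus strand, chr2:84765387-84775444), was at 3.34, 5.97, 9.23 and 4.39 CPM in WT vehicle. In APP vehicle it was at 18.4, 17.7, 16.9, 24.4, 11.9 and 8.24 CPM. In APP JQ1 it was at 25.6, 20.4, 30.1, 17.1, 12.04 and 24.4 CPM. A single APP vehicle library lay within the WT range and all JQ1 libraries lay above it, replicate 4 included. That library, at 17.1 CPM, is among those with over 100 CPM of Alb. So are the libraries with the highest value of APP vehicle (24.4) and of APP JQ1 (30.1), and the one with the lowest WT value (3.34). The part of liver transcripts in these values was not tested. The highest WT value, 9.23, is that of replicate 4, the library with 3065 CPM of Ttr, and without it the log2 fold change was 1.82 ± 0.34 in APP vehicle against WT vehicle (adjusted p = 0.0379, edgeR). The log2 fold change was 1.498 ± 0.326 in APP vehicle against WT vehicle (adjusted p = 0.0188, edgeR) and 1.91 ± 0.33 in APP JQ1 against WT vehicle (adjusted p = 0.0124, edgeR). Without the 4 libraries with over 100 CPM of Alb, the first was 1.15 ± 0.32 and did not pass (adjusted p = 0.102, edgeR), nor did it pass under the other limits on liver transcripts (adjusted p = 0.116 and 0.104, edgeR).

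Whether the drug moved complement genes in diseased tissue was asked with the JQ1 and vehicle groups of APP mice. None of the 9 genes passed in edgeR's test, against 1.08% of all genes, 0 were under an unadjusted p of 0.05, against 17.6% of all genes, and DESeq2 called 0. Of the 9, 7 had a negative log2 fold change, with a median of -0.40, and all genes tested had one of -0.00. Without the library labelled replicate 4 it was 6 of 9, with a median of -0.23, and without the 4 libraries over 100 CPM of Alb 5 of 9, with a median of -0.05. C1qa was at -0.49 (95% interval -1.23 to 0.26), C4b at -0.48 (-1.37 to 0.41) and Serping1 at 0.41 (-0.17 to 0.99). Without the library labelled replicate 4 the intervals narrowed, C1qa to -0.28 (-0.82 to 0.26) and C4b to -0.24 (-0.72 to 0.23), and again 0 of 9 passed, against 0.431% of all genes, with 0 under an unadjusted p of 0.05 (13.6% of all genes). C3ar1 was at -0.24 with this library and 0.01 without it. A p that misses the threshold does not show that the groups were alike.

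In APP JQ1 against WT vehicle, 6 of the 9 genes were higher, where 2.06% of all genes passed, 1.93% as higher. These were C1qa, C1qb, C1qc, C4b, C3ar1 and Serping1. C4b had a log2 fold change of 3.13 ± 0.53 (adjusted p = 0.0137, edgeR), C3ar1 3.04 ± 0.60 (adjusted p = 0.0178, edgeR) and C1qa 2.03 ± 0.42 (adjusted p = 0.0247, edgeR). Itgam, at 0.93 ± 0.24, missed the threshold (adjusted p = 0.0538, edgeR). Without the library labelled replicate 4, 7 of 9 passed, against 3.84% of all genes, Itgam among them (1.05 ± 0.21, adjusted p = 0.00640, edgeR). Without the 4 libraries with over 100 CPM of Alb 8 of 9 passed, against 3.9% of all genes, and all but C5ar1 were among them. With all libraries, C1qb and Serping1 did not overlap between the groups, against 2.55% of all genes in this direction. Without any 1 WT library the count fell, to 2 without replicate 1, 0 without replicate 3, 1 without replicate 4 and 0 without replicate 5. The share of all genes called fell too, to 0.883%, 0.144%, 0.174% and 0.0637% in this order, and the fits without a WT library kept the library labelled APP JQ1 replicate 4. The same 4 WT libraries serve the comparison of APP vehicle.

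**Figure D3:**
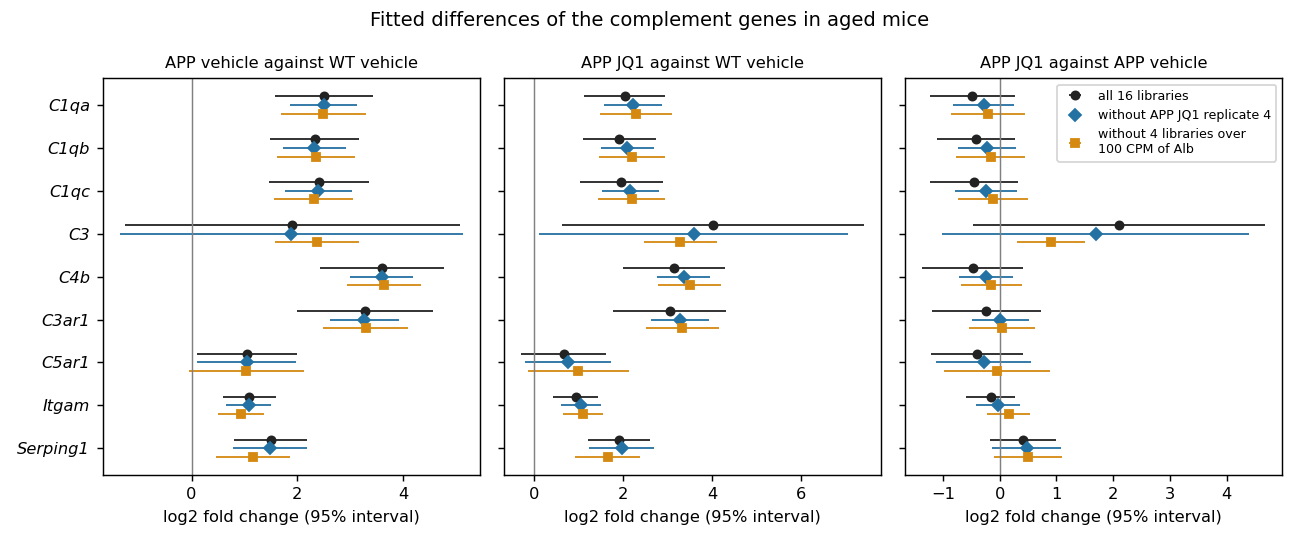
Fitted log2 fold change with its 95% interval (x axis) of the 9 complement genes (y axis) in the 3 aged comparisons, for all 16 libraries, without the library labelled APP JQ1 replicate 4, and without the 4 libraries over 100 CPM of Alb. The C3 interval narrows from between -1.27 and 5.08 to between 1.59 and 3.16 in APP vehicle against WT vehicle, and in JQ1 against vehicle the only interval clear of 0 is that of C3 without the 4 libraries, from 0.312 to 1.505.

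In young WT mice no complement gene passed the test between JQ1 and vehicle, and the groups overlapped for all 9. Of all loci, 0.0109% lay higher and 0.0163% lower in JQ1 without overlap. C3 and C5ar1 were too low to be tested, at an FPKM of at most 0.477 and 0.436. None of the other 7 passed in limma's test, against 0.00543% of all 18420 loci, and 0 were under an unadjusted p of 0.05, against 4.65%. C1qa was at 21.0 to 31.6 FPKM in vehicle (median 27.1) and 22.3 to 33.3 in JQ1 (median 27.2), with a log2 fold change of 0.06 (95% interval -0.14 to 0.26). C4b was at 5.25 to 11.7 FPKM in vehicle (median 6.38) and 4.93 to 7.51 in JQ1 (median 5.28), with -0.20 (-0.50 to 0.09). The 12 microglial markers summed to 164 to 184 FPKM in vehicle and 151 to 186 in JQ1. The effect of JQ1 was not tested for a difference between APP and young WT mice, whose values are in different units. These mice also differed in age, sex and number of injections.

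**Figure D4:**
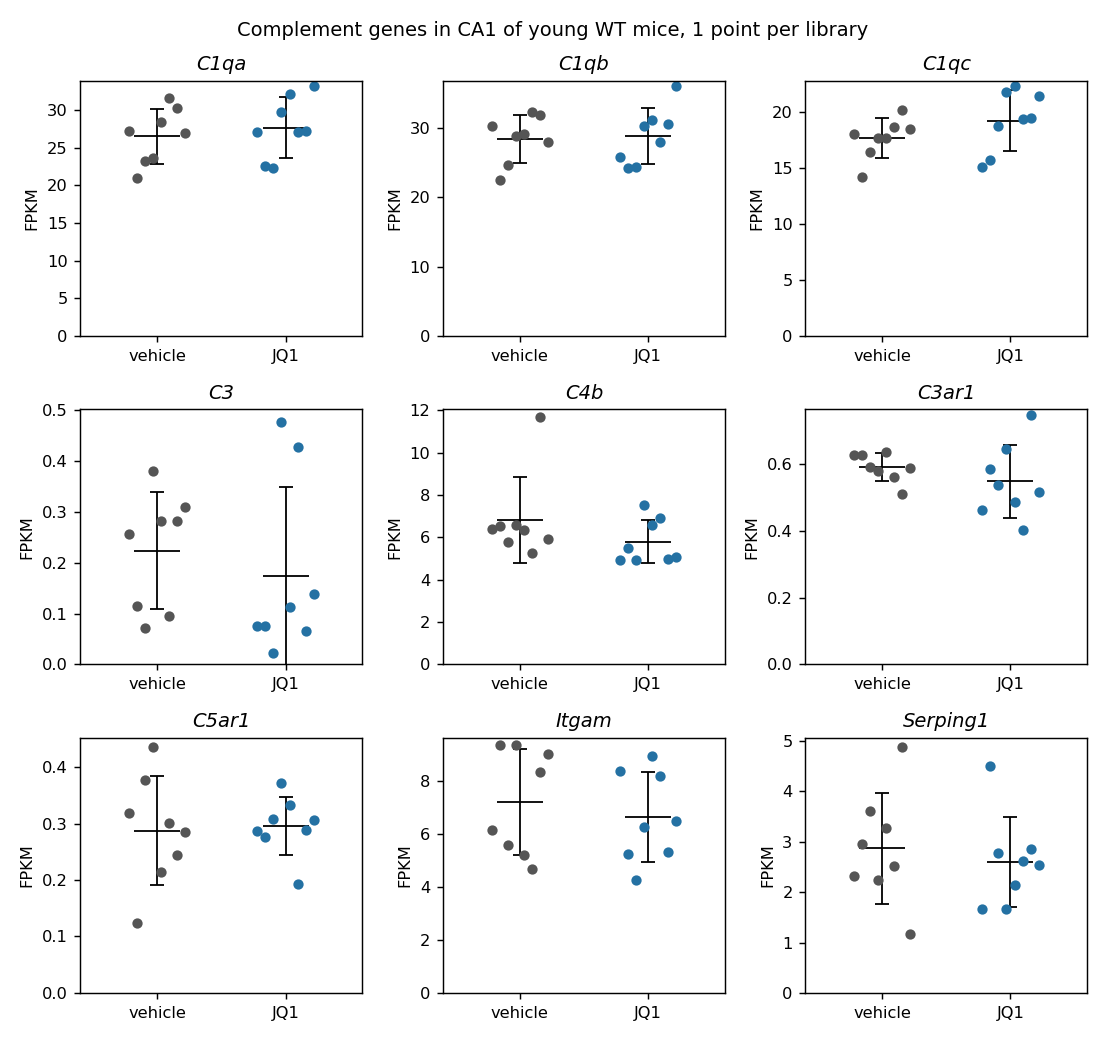
Level of each complement gene in young WT libraries (y axis, FPKM from 0) for vehicle (8) and JQ1 (8), with the mean and SD, bars below 0 cut at the axis. The points of both groups overlap in all 9 panels, with C1qa between 21.0 and 33.3 FPKM.

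The order of the genes was read from levels per length. In RPKM, reads per exon length and library size, C1qa and C1qb led in aged mice, at 40.0 ± 4.67 and 42.0 ± 2.17 in WT vehicle and 228 ± 82.1 and 211 ± 73.6 in APP vehicle, and the libraries did not order these neighbours alike, C1qb being above C1qa in 3 of 4 WT libraries and C1qa above C1qb in 4 of 6 APP vehicle libraries. C1qc followed, at 15.7 ± 2.55 and 83.5 ± 28.02 on the same scale. C4b stood at 4.87 ± 0.523 in WT vehicle and 59.4 ± 15.8 in APP vehicle, below C1qc in 4 of 4 and 5 of 6 libraries. Itgam and Serping1 followed C4b in both, and in APP vehicle Itgam was above Serping1 in 4 of 6 libraries, so that this order is within the spread. C5ar1 was last in the aged groups, and C3 had the lowest mean in young mice, where C5ar1 lay above it in 5 of 8 vehicle and 6 of 8 JQ1 libraries, an order within the spread.

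Within groups the members varied together to different degrees. Over the 16 aged libraries, which share depth and composition as sources of variation, the Pearson r of deviations from group means was 0.987 for C1qa with C1qb, 0.986 for C1qa with C1qc, 0.900 for C1qa with C4b and 0.955 for C4b with C3ar1. Without the library labelled APP JQ1 replicate 4 (15 libraries) these were 0.971, 0.968, 0.763 and 0.749. C3 with C1qa had an r of -0.33 with that library and -0.03 without it. In young mice (16 libraries) C1qa with C1qb had an r of 0.912 and C1qa with C4b one of 0.258. The genes whose deviations were most like those of C1qa were C1qb, C1qc and Ctsd (r = 0.971). Those nearest to C3 were Rfk, Serpina3k and H2-Q10 (0.970, 0.968 and 0.962), those nearest to C4b were Naip2, Tlr13 and Myo1f (0.977, 0.974 and 0.970), and those nearest to Serping1 were Egfl8, Pm20d1 and Limd1 (0.841, 0.834 and 0.831). Without the 4 libraries over 100 CPM of Alb (12 libraries) the genes nearest to C3 were Ctbs, Gpnmb and Tmem45a (0.917, 0.910 and 0.908), and those nearest to Serping1 were Wfdc17, Lgals3 and Def6 (0.951, 0.948 and 0.944), so that no neighbour of either gene was shared with the 16 libraries. C1qa then had C1qc, Ctss and C1qb (0.987, 0.977 and 0.973), and C4b had Tjap1, Tlr13 and Myo1f (0.986, 0.958 and 0.956).

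Of 57 further genes of the pathway, 56 were found and 48 were tested in aged mice. In APP vehicle against WT vehicle 3 were called higher, Itgax and Itgb2 among them, and none lower, where 2.57% of all genes were called. Itgax, an integrin chain of complement receptor 4, was at 0.299 to 0.506 CPM in WT vehicle and 8.999 to 37.3 in APP vehicle, with a log2 fold change of 5.93 ± 0.87 (adjusted p = 0.00828, edgeR). Itgb2, the partner chain of Itgam and Itgax, was at 3.49 to 6.17 and 12.4 to 26.9 CPM, with 2.10 ± 0.41 (adjusted p = 0.0106, edgeR). Clu passed only without the library labelled APP JQ1 replicate 4 (0.70 ± 0.16, adjusted p = 0.0152, edgeR).

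In JQ1 against vehicle in APP mice 1 of the 48 passed, where 1.08% of all genes did. This was Csmd3, a membrane protein with complement control domains. It was at 21.0 to 29.4 CPM in APP vehicle and 31.2 to 45.8 in APP JQ1, without overlap, against 0.878% of all genes that did not overlap in this direction, and the log2 fold change was 0.67 ± 0.11 (adjusted p = 0.00469, edgeR). It was not called without the 4 libraries over 100 CPM of Alb (0.61 ± 0.12, adjusted p = 0.0506, edgeR) and was called without the library labelled APP JQ1 replicate 4 (0.66 ± 0.11, adjusted p = 0.0131, edgeR). In APP JQ1 against WT vehicle 5 were called higher, Cd59a, Clu, Itgax and Itgb2 among them, where 2.06% of all genes were called. Clu, which binds the terminal complex, was at 790 to 1044 CPM in WT vehicle and 1075 to 2518 in APP JQ1, with 0.89 ± 0.19 (adjusted p = 0.0234, edgeR). Cd59a, an inhibitor of that complex, was at 2.11 to 4.83 and 5.60 to 11.1 CPM, with 1.34 ± 0.32 (adjusted p = 0.0355, edgeR). In young mice none of 29 tested passed in limma's test.

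Of the 7 genes of the terminal complex, Hc, C6, C8a and C9 had their 4 highest values in the 4 libraries over 100 CPM of Alb, as C3 did, and C7 and C8g did not. C7 was at 0.506 and 0.933 CPM in APP JQ1 replicates 3 and 4 and at 1.17 and 1.42 in replicates 1 and 2. The sum of the 7 was 5.65 to 11.95 CPM in WT vehicle, 5.10 to 30.8 in APP vehicle and 5.12 to 78.1 in APP JQ1. Hc, which encodes C5, was 0.0121 to 0.0171 times Alb in the 4 libraries over 100 CPM of Alb. Without these libraries the sum of the terminal genes was 5.10 to 8.47 CPM in all 3 groups, and none of the 3 that were then tested passed.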

How the data were processed

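The deposited counts of aged mice are whole reads per gene, which the authors made with HTSeq from reads aligned to mm10 by STAR with at most 2 mismatches. The deposited FPKM of young mice come from cufflinks and cuffdiff by the authors, normalized to transcript length and depth. Counts of the 3 aged groups were tested in 1 fit with edgeR version 4.0.16 (TMM, filterByExpr, robust quasi-likelihood). Young mice were tested with limma 3.58.1, with its trend and robust options, on log2(FPKM + 0.1) of loci that reached 0.5 FPKM in 8 or more of the 16 libraries, so that changes of low genes are understated. P-values were adjusted over all features (Benjamini-Hochberg, threshold 0.05). DESeq2 version 1.42.0 was an alternative. Genes named were the 9 members, further pathway genes past the threshold (some are not reported here), C4a, the 3 genes nearest to 4 members and leading markers. Clu and Csmd3 under the other library sets, the terminal genes and the genes nearest in 12 libraries were named after their values were seen. Fcrls was also named after its values were seen. Members, lists and sequences were chosen with earlier results of these data known. The lists of hepatocyte and transgene markers, and 3 limits on liver transcripts, were added after the values were seen, and the results of all 3 limits are given. Fits were tested on simulated data. Protein sequences were not used here.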

Additional observations from a re-analysis of the deposited data

Results flagged for a closer look

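In 45 groups of a member each, 4 had a library far from the others by Dixon's criterion, where chance gives about 1 in 20. C3 was at 11.1 CPM in WT vehicle replicate 1 and at 54.8 CPM in APP vehicle replicate 4, both libraries with over 100 CPM of Alb. C4b was at 11.7 FPKM in young vehicle replicate 7. Serping1 was at 4.5 FPKM in young JQ1 replicate 2.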

How the results depend on the processing

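Genes and members called depended on the processing, and the cause was not tested except where fewer libraries entered. In APP vehicle against WT vehicle (436 genes, 7 members) DESeq2 called 792 genes, a fit of only these groups 679, the replicate block 35 and the block with GC content and length 29, with 0 members called under either block, and leaving out 1 library gave 154 to 601 genes and 3 to 7 members. In JQ1 against vehicle in APP mice (184 genes, 0 members) DESeq2 called 749 genes, GC content and length 42, the replicate block 87 and the block with GC content and length 33, and leaving out 1 library gave 65 to 446. In APP JQ1 against WT vehicle (349 genes, 6 members) DESeq2 called 790 genes, a fit of only these groups 227 with 2 members, the replicate block 21 with 1 member, the block with GC content and length 36 with 1, and leaving out 1 library gave 11 to 651 genes and 0 to 7 members. In young mice (1 locus) no filter and the replicate block gave 0 and leaving out 1 library gave 0 to 2. The deviations of same-numbered libraries had an r from -0.471 to 0.342 in aged and -0.07 to 0.104 in young mice. In JQ1 against vehicle in APP mice it was 0.328, 0.285 and 0.342 for replicates 1, 2 and 4. Whether equal numbers mark a pairing was not tested, since libraries of different number were not compared. The labels name no pairing, so the block is not read as a paired result.

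In all, 3 limits on liver transcripts were tried, all after the values of the members were seen, and the one on Alb was shown in the text. With Alb, with 100 CPM of summed hepatocyte markers and with 10 CPM of them, JQ1 against vehicle in APP mice had 76, 14 and 0 genes called, and APP JQ1 against WT vehicle had 667 with Alb. With the limit on Alb, 7, 0 and 8 members were called in the 3 aged comparisons, against 2.3%, 0.444% and 3.9% of all genes. The limit of 100 CPM on the summed markers gave the same counts of members. Its share of all genes is not reported here for the comparisons with WT vehicle. In JQ1 against vehicle, where no member was called, C3ar1 changed sign to 0.036, 0.177 and 0.334 and Itgam to 0.154, 0.177 and 0.425 under these limits, C5ar1 to 0.239 with the 100 CPM limit on the sum, and C1qc to 0.133 and C4b to 0.338 with the 10 CPM limit, which leaves 1 JQ1 library that is assumed to vary like the other groups. Leaving out 1 library gave C3ar1 -0.513 to 0.006 in that comparison, and in young mice C1qb -0.031 to 0.051 and Serping1 -0.269 to 0.012. Over all members and alternatives, 788 values kept direction and side of the threshold, 67 lost the call, 15 gained it and 15 changed sign. The low counts of C5ar1 and C3 limit what their tests can show.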
